A study of Mus musculus with 10 samples.

Results

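Gene expression was compared directly between lineage-negative bone marrow cells of double mutant mice and wild-type (WT) bone marrow neutrophils, using 4 of the 10 RNA-seq libraries of the study. Both populations came from C57BL/6 mice, and age and sex are not among the labels. The double mutant mice were Npm1flox-cA/+;Flt3ITD/+;Mx1-Cre+, so they carried 1 floxed mutant Npm1 allele switched on by the Cre recombinase of the interferon-inducible Mx1 promoter and 1 Flt3 allele with an internal tandem duplication. How Cre was induced is not given in the labels, and Mx1-Cre acts in marrow cells of many kinds. Their haematopoietic stem and progenitor cells (HSPC) were what a magnetic lineage depletion kit left behind, and the neutrophils were isolated from WT marrow with a magnetic neutrophil kit, so genotype and isolation method both differed between the groups and cannot be told apart. Each group had 2 libraries, described as biological replicates. WT HSPC (2 libraries) are given beside them as the level in unmutated lineage-negative marrow, and HSPC with either mutation alone entered only the estimate of spread. Of 16771 genes in the tables, 9583 reached at least 1 RPKM (reads per kilobase of gene and scaled to library size) in at least 2 of the 4 libraries and were tested. The second highest of the 4 values was 1.00115 RPKM for Hnrnph3, just inside this minimum, and 0.99930 RPKM for 2510002D24Rik, just outside it. In all, 7063 genes reached the minimum in both groups, 1820 only in double mutant HSPC, 689 only in neutrophils and 11 through 1 library of each. Genes above the minimum in 1 group alone differ partly through the filter itself. This holds for every gene below that was under 1 RPKM in both libraries of 1 population, also where it is not repeated. Ciita, Ifi205, Flt3 and Bcl2a1d were such genes in one direction, and Mmp9, Padi4, Cxcr2, Csf3r and Cebpe in the other.

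Neutrophils are short-lived phagocytes that fill successive sets of granules as they mature in the marrow: primary granules with myeloperoxidase and serine proteases in promyelocytes, secondary granules with lactoferrin and cathelicidin in myelocytes, then tertiary granules and secretory vesicles with gelatinase and surface receptors. They kill ingested microbes with these contents and with superoxide made by the phagocyte NADPH oxidase. Dendritic cells and macrophages share much of the phagocytic and Toll-like receptor machinery, but dendritic cells are specialised to present antigen on MHC class II molecules, whose genes are switched on by the coactivator CIITA. The nucleolar protein NPM1 helps ribosomes to assemble, and its leukaemia mutants are displaced to the cytoplasm, and FLT3 is a growth factor receptor tyrosine kinase of early progenitors and dendritic cells, active without ligand when internally duplicated.

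The library totals behind the RPKM values, recovered from the values themselves, came to 44450779 and 48434887 reads in the double mutant pair of libraries and to 40783015 and 42986220 in the neutrophil pair. The 10 highest genes took 12.3% of all RPKM in either double mutant library but 44.5% in either neutrophil library, and RPKM are relative to the library total. The median gene was 0.50 lower in neutrophils on the log2(RPKM + 0.5) scale, a 1.41-fold shift. Every difference below is double mutant HSPC minus WT neutrophils on that log2 scale, relative to the median gene, from a limma fit with 2 libraries per group and Benjamini-Hochberg adjustment over the 9583 genes, whereas printed RPKM are as deposited. For a gene near 0 in one group the size of such a difference depends on the 0.5 added to each value and is no bound. The replicates differed by more than sampling noise in both groups (chi-square per gene 3.43 and 2.30). They differed more in HSPC with the Npm1 mutation alone (11.02) or the Flt3 duplication alone (32.66), which also entered the estimate of spread. The p-values and intervals thus measure only the spread between replicates pooled over all 10 libraries, not that of the 4 compared. The Y-linked gene Ddx3y was at 0.00164 and 3.82 RPKM in the pair with the Npm1 mutation alone. It was at 4.42 and 0 in the pair with the Flt3 duplication alone, and at or near 0 in the compared libraries and WT HSPC. The part of this difference in the spread was not tested.

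The neutrophil libraries carried the markers of their label. Ly6g, the surface antigen used to define mouse neutrophils, was at 441 and 438 RPKM in the neutrophil libraries, 0.354 and 0.179 in double mutant HSPC and 0.256 and 0.218 in WT HSPC. The progenitor markers did not share one direction in the double mutant libraries. Kit, the stem cell factor receptor, was at 8.703 and 8.65 RPKM in them against 14.9 and 14.5 in WT HSPC and 1.86 and 1.93 in neutrophils. Cd34, a surface sialomucin of early progenitors, was at 3.26 and 3.37 against 15.3 and 15.7 and 0.459 and 0.457 RPKM in the same order. Gata2 was under both other populations, at 0.949 and 1.02 against 6.09 and 6.29 and 2.29 and 2.09 RPKM. Cd48, also counted among the HSPC markers, was instead highest in double mutant HSPC, at 63.9 and 64.8 against 18.8 and 18.6 and 3.51 and 2.86 RPKM. Myb, given below, was under WT HSPC. The same double mutant libraries carried dendritic cell and MHC class II genes, described below, at levels far above both other populations. The label HSPC therefore names a lineage-depleted fraction here, in which the number of cells of a type and the RNA per cell cannot be told apart.

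Between the populations 1767 genes (18.4%) were higher in double mutant HSPC and 2255 (23.5%) were lower, by at least 2-fold with an adjusted p under 0.05. Another 1489 (15.5%) were called similar, meaning that the 95% interval of the difference lay within 2-fold either way and both group means were at least 5 RPKM, a condition that 53.3% of the 2795 genes with such means met. With an adjusted p alone, 8466 genes (88.3%) passed, so the direction and the size of a difference say more here than the p. The shares of 18.4% higher, 23.5% lower and 15.5% similar are those to set beside each list count below. The balance of the called genes rests on the scale: 43.9% of them were higher in double mutant HSPC relative to the median gene, 68.1% on the deposited scale, 54.4% after quantile normalization and 62.5% with no filter on low values.

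**Figure D1:**
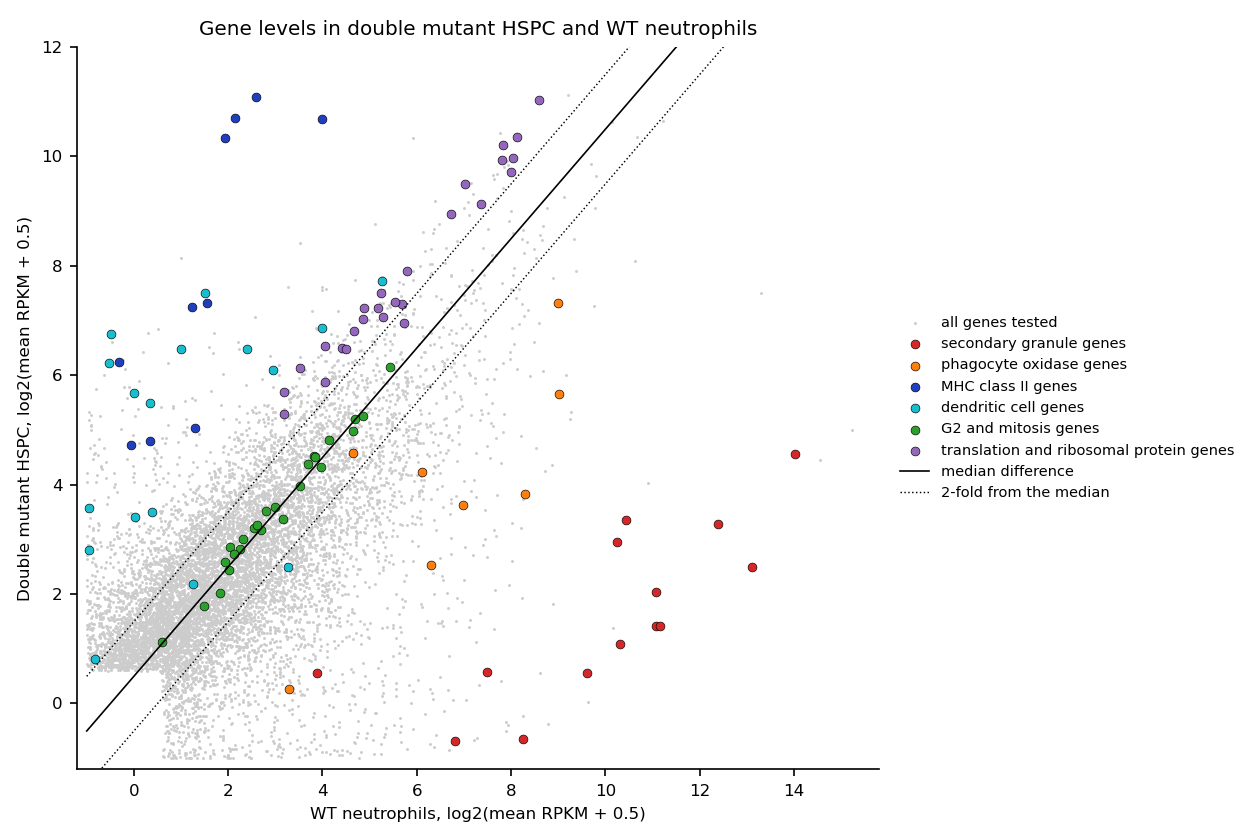
Mean level of each of the 9583 tested genes in WT neutrophils (horizontal) and double mutant HSPC (vertical), both as log2(mean RPKM + 0.5), with 6 gene groups coloured. The solid line is the median difference and the dotted lines lie 2-fold from it: secondary granule genes sit far to the lower right, MHC class II genes to the upper left and the 25 G2 and mitosis genes on the median line.

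Among the lists, secondary granule genes lay furthest toward the neutrophils. All 14 secondary granule genes were lower in double mutant HSPC, against 23.5% of all genes tested, with a median difference of -9.55 against 0.00. Their summed level was 43396 and 41980 RPKM in neutrophils and 71.6 and 62.8 in double mutant HSPC. Lactoferrin (Ltf), the iron-binding protein of these granules, was at 2143 and 2139 RPKM in neutrophils, 2.31 and 2.04 in double mutant HSPC and 1.55 and 1.18 in WT HSPC. Its difference was -10.14 ± 0.49 (SE, adjusted p = 1.40e-07). Both mutant libraries thus lay near WT HSPC and 1131-fold under the neutrophils relative to the median gene. Resistin-like gamma (Retnlg), a secreted protein of myeloid cells, had the largest gap of all genes called lower (gene at chr16:48872621-48874496, GRCm38, plus strand), at 8994 and 8784 RPKM in neutrophils, 5.77 and 4.55 in double mutant HSPC and 5.95 and 3.92 in WT HSPC (difference -11.12 ± 0.66 SE, adjusted p = 5.01e-07). Neutrophilic granule protein (Ngp), among the most abundant transcripts of the neutrophil libraries, was at 17295 and 15916 RPKM there, 23.99 and 22.2 in double mutant HSPC and 13.5 and 11.1 in WT HSPC, a difference of -9.95 ± 0.54 (SE, adjusted p = 2.88e-07). Cathelicidin (Camp), an antimicrobial peptide, stood at 5229.6 and 5442 against 10.4 and 7.996 RPKM (difference -9.61 ± 0.52). Lipocalin 2 (Lcn2), which binds bacterial siderophores, stood at 778 and 782 against 1.05 and 0.8999 RPKM (difference -9.55 ± 0.43). The smallest gap of the list, in the vitamin B12 carrier Tcn2, was still -3.84 ± 0.13.

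Ltf spans chr9:111019271-111042767 and Ngp chr9:110419747-110423012, both on the plus strand (GRCm38, GENCODE M21), and the stretch before the start of each is shown because it holds the pattern TTNNGNAA, a loose form of the site bound by C/EBP factors, which direct granule gene expression. The sequences are from RefSeq (GRCm38.p6), run 5′ to 3′ up to the annotated gene, and carry matches on either strand in capitals. That of Ltf is chr9:111019042-111019270 on the plus strand and that of Ngp chr9:110419558-110419746 on the plus strand, both upstream of the first exon.
Ltf: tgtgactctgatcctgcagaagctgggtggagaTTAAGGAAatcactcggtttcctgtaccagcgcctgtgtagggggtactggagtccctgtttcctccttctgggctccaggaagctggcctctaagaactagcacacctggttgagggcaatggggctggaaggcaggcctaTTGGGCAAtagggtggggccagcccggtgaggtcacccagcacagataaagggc
Ngp: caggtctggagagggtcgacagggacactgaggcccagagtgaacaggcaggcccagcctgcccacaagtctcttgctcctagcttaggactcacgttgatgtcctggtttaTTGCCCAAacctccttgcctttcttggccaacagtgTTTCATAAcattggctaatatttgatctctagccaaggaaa
In windows from 250 bases before to 50 after the start, RefSeq gave 12 windows for 12 of the 14 secondary granule genes, and 10 of them (83.3%) held at least 1 match and 5 (41.7%) at least 2. Among all 32851 windows of 27025 genes the shares were 40.7% and 13.6%. A match is a run of letters and not a measured binding site.

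Later granule genes followed the same direction with a wider range. Of 14 tested genes of tertiary granules and secretory vesicles, 11 were lower, 1 was similar and none was higher (median -4.03). Gelatinase B (Mmp9) was at 796 and 794 RPKM in neutrophils and 0.637 and 0.396 in double mutant HSPC, a difference of -10.12 ± 0.39 (SE, adjusted p = 3.51e-08). The formyl peptide receptor Fpr1, which senses bacterial peptides, was at 391 and 396 against 1.11 and 0.828 RPKM (difference -8.57 ± 0.32). Padi4, the enzyme that citrullinates histones when neutrophils release chromatin, was at 72.2 and 70.96 against 0.395 and 0.346 (difference -6.87 ± 0.07). Some members were closer. The metalloprotease Adam8 was at 12.9 and 12.3 RPKM in double mutant HSPC, 39.21 and 39.16 in neutrophils and 0.1297 and 0.124 in WT HSPC, so that both populations exceeded WT HSPC while differing by -2.10 ± 0.08. Slc11a1, the phagosomal metal transporter, had the same order at 2.99 and 3.05, then 10.1 and 9.902, then 0.0256 and 0.0245 RPKM (difference -2.07 ± 0.05). Vamp8, a membrane fusion protein, was similar (-0.82, 95% interval -0.97 to -0.67), a call that was lost without any 1 of the 4 libraries.

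Among the S100 and annexin genes, which encode calcium-binding proteins, 8 of 12 were lower, 2 higher and 1 similar (median -2.96). S100a9, a subunit of the alarmin calprotectin, had the highest level of any of these genes at 37932 and 38616 RPKM in neutrophils, against 33.95 and 28.8 in double mutant HSPC and 26.6 and 17.7 in WT HSPC (difference -10.73 ± 0.61 SE, adjusted p = 3.92e-07). Its partner S100a8 was at 23686 and 24133 against 23.03 and 19.5 RPKM (difference -10.60 ± 0.54). Other family members ran the opposite way. S100a4 was at 101 and 92.5 RPKM in double mutant HSPC and 3.58 and 4.63 in neutrophils (difference 3.91 ± 0.16), and the double mutant libraries were also above the 12.56 and 12.58 RPKM of WT HSPC. S100a10, the annexin A2 partner, was at 40.1 and 38.4 against 4.195 and 5.298 RPKM (difference 2.43 ± 0.16). S100a11 was above WT HSPC in both populations while lower in double mutant HSPC than in neutrophils: it was at 24.4 and 23.9 RPKM in WT HSPC, 151 and 156 in double mutant HSPC and 883 and 848 in neutrophils (difference -2.99 ± 0.25).

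Primary granule genes, which belong to the promyelocyte stage, gave smaller gaps, and both populations had lower mean RPKM than WT HSPC in most of them. Of 15 tested, 10 were lower in double mutant HSPC, 2 higher and 1 similar (median -1.54). Myeloperoxidase (Mpo) was at 285 and 297 RPKM in WT HSPC, 51.89 and 51.88 in neutrophils and 17.6 and 19.7 in double mutant HSPC, a difference between double mutant HSPC and neutrophils of -1.95 ± 0.27 (SE, adjusted p = 1.41e-04). Neutrophil elastase (Elane) was at 384 and 399, then 228 and 227, then 31.4 and 30.1 RPKM in the same order (difference -3.36 ± 0.37). The double mutant libraries were thus the lowest of the 3 populations for both enzymes. Cathepsin C (Ctsc), the protease that activates the granule serine proteases, was at 12.1 and 11.9 RPKM in double mutant HSPC and 2.99 and 2.92 in neutrophils, the reverse order (difference 1.36 ± 0.17). Cystatin F (Cst7), an inhibitor of cathepsins, was similar at 17.3 and 17.1 against 10.9 and 10.7 RPKM (95% interval -0.57 to 0.88), though not on the deposited scale or without any 1 of the 4 libraries.

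**Figure D2:**
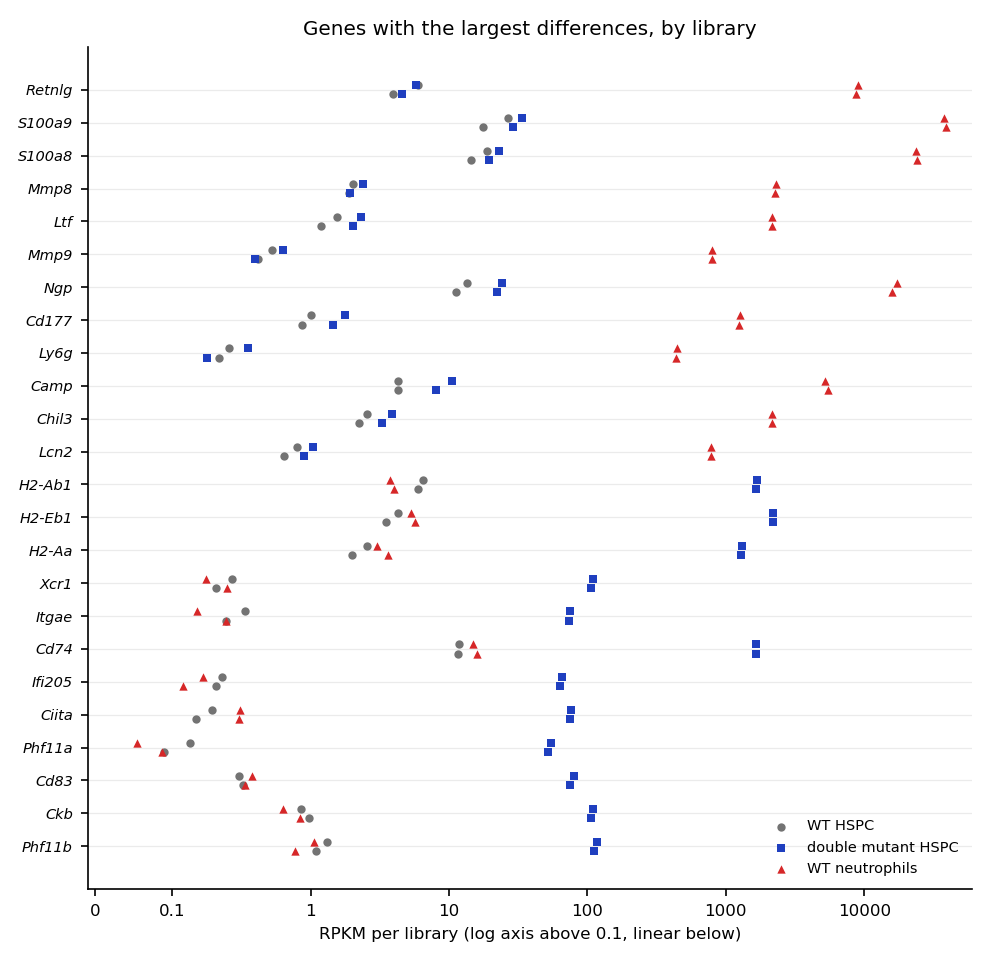
RPKM in each library (log axis above 0.1, linear below) of the 12 genes furthest apart in each direction, for WT HSPC, double mutant HSPC and WT neutrophils. The neutrophil libraries stand alone for the upper 12 genes, with double mutant and WT HSPC libraries close together at the left, and the double mutant libraries stand alone for the lower 12.

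The killing machinery of phagocytes was present in both populations but lower in double mutant HSPC. Of 8 genes of the NADPH oxidase and its regulators, 7 were lower and the small GTPase Rac1 was similar (-0.57, 95% interval -0.76 to -0.38), with a median of -3.70. Cybb, the catalytic gp91phox subunit, was at 4.03 and 3.75 RPKM in WT HSPC, 13.7 and 13.8 in double mutant HSPC and 312 and 319 in neutrophils (difference -4.96 ± 0.21 SE, adjusted p = 5.73e-08). Its membrane partner Cyba was at 40.9 and 43.9, then 162 and 158, then 522 and 504 RPKM in that order (difference -2.17 ± 0.12). For both membrane subunits the double mutant libraries therefore lay between WT HSPC and neutrophils, with no overlap. The cytosolic organiser Ncf1 was at 12.2 and 11.6 against 127 and 126 RPKM (difference -3.85 ± 0.22), and Ncf4, which binds phagosomal lipid, at 18.7 and 17.6 against 67.97 and 70.2 (difference -2.39 ± 0.17). In deposited RPKM, Rac2, the GTPase of the neutrophil oxidase, did not lie between WT HSPC and neutrophils. Its 50.7 and 49.5 RPKM in double mutant HSPC were just under the 50.8 and 53.3 of WT HSPC, and neutrophils had 528 and 511 (difference -3.86 ± 0.18). The median gene itself differed by -0.28 (double mutant minus WT HSPC, log2), so the order of Rac2 against WT HSPC depends on the scale. Hvcn1, the proton channel that balances the charge of the oxidase, was lower in double mutant HSPC (0.5903 and 0.798 RPKM) than in WT HSPC (1.35 and 1.395) and neutrophils (9.37 and 9.26).

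Most genes of the Fc receptor and phagocytosis list were likewise lower in double mutant HSPC. Of 20 Fc receptor and phagocytosis genes, 16 were lower, 1 was higher and none was similar (median -2.91), and on the deposited scale 14 were lower and 2 similar. The adaptor Tyrobp (DAP12) was at 78.4 and 84.1 RPKM in WT HSPC, 279 and 265 in double mutant HSPC and 1607 and 1558 in neutrophils (difference -3.04 ± 0.22 SE, adjusted p = 1.91e-06). Pirb, an inhibitory receptor that binds MHC class I, was at 0.338 and 0.304 RPKM in WT HSPC, 8.48 and 8.19 in double mutant HSPC and 37.5 and 38.1 in neutrophils (difference -2.61 ± 0.08). In both genes the double mutant libraries were far above WT HSPC and below neutrophils. Receptors such as Trem1, an amplifier of inflammation (0.231 and 0.232 against 39.7 and 40.4 RPKM), and the C-type lectin Clec4d (0.568 and 0.514 against 107 and 110.5 RPKM) stayed near 0 in double mutant HSPC. The exception in direction was Fcgr1, the high-affinity IgG receptor of monocytes and macrophages, at 2.35 and 2.51 against 0.262 and 0.322 RPKM (difference 1.39 ± 0.08), which fell just under 2-fold (0.98) with 1 in place of 0.5 added to each value.

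**Figure D3:**
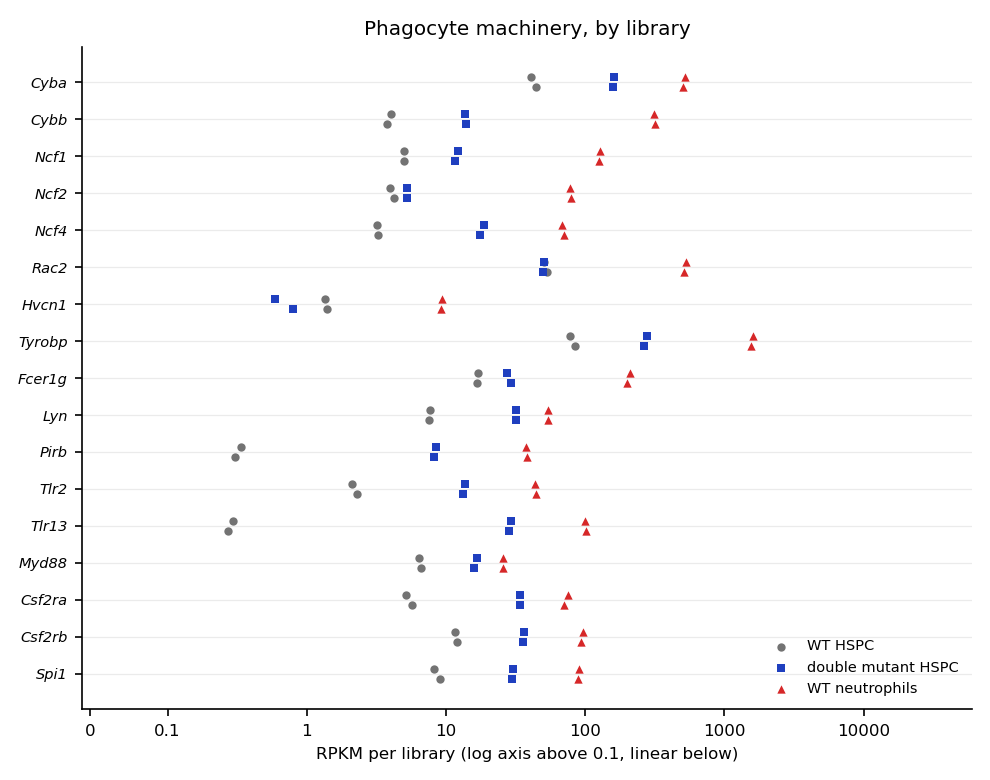
RPKM in each library (log axis above 0.1, linear below) of 17 genes of the oxidase, Fc receptor signalling, Toll-like receptor and cytokine receptor lists and of Spi1. The neutrophil libraries are highest for all 17, and for most of them the double mutant libraries lie between WT HSPC and neutrophils, with Rac2 at the WT HSPC level and Hvcn1 below it. These genes were picked with their values known, so their common order does not describe the whole lists. Other members, such as Tlr3, Tlr9, Fcgr1 and Flt3, were higher in double mutant HSPC than in neutrophils.

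Of 17 chemoattractant and homing receptor genes, 13 were lower and 3 higher in double mutant HSPC (median -3.77). Cxcr2, the chemokine receptor that draws neutrophils out of the marrow, was at 244 and 242 RPKM in neutrophils, 0.325 and 0.192 in double mutant HSPC and 1.23 and 1.101 in WT HSPC (difference -8.83 ± 0.18 SE, adjusted p = 1.21e-09). C5ar1, the receptor of complement C5a, was at 78.2 and 75.6 against 0.0987 and 0.0947 RPKM (difference -7.51 ± 0.14). The genes higher in double mutant HSPC were the monocyte chemokine receptor Ccr2 at 33.4 and 32.3 against 1.59996 and 1.76 RPKM (difference 3.44 ± 0.08), the fractalkine receptor Cx3cr1 (difference 1.96 ± 0.09) and the integrin subunit Itga4 (difference 1.19 ± 0.06). Ptafr, the receptor of platelet-activating factor, was near 0 in WT HSPC (0.507 and 0.614 RPKM) and expressed in double mutant HSPC (27.8 and 27.2) and neutrophils (62.7 and 62.9), which differed by -1.67 ± 0.09.

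Among 21 Toll-like receptor and adaptor genes, 14 were lower, 2 higher and 2 similar (median -1.503), against 11 lower and 4 higher on the deposited scale. Tlr3, an endosomal sensor of double-stranded RNA, was at 39.3 and 37.2 RPKM in double mutant HSPC and 0.0297 and 0.0281 in neutrophils (difference 5.70 ± 0.05 SE, adjusted p = 5.32e-11). Tlr9, the endosomal DNA sensor, was at 14.3 and 13.9 against 0.2398 and 0.315 RPKM (difference 3.73 ± 0.08). Tlr3 and Tlr9 reached the minimum only through the double mutant libraries, so their direction follows from the filter. Tlr2, a receptor for bacterial lipoproteins, ran the other way at 13.6 and 13.3 against 43.7 and 44.5 RPKM (difference -2.17 ± 0.13), as did Tlr4, the lipopolysaccharide receptor, at 2.186 and 2.187 against 16.1 and 16.7 (difference -3.15 ± 0.10). Tlr13, an endosomal sensor of bacterial ribosomal RNA, was shared above WT HSPC (0.294 and 0.273 RPKM) at 29.1 and 28.4 in double mutant HSPC and 98.8 and 102 in neutrophils, with neutrophils higher (difference -2.28 ± 0.12).

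Of 12 inflammasome and interleukin-1 genes, 10 were lower, 1 was higher and 1 similar (median -1.97), with 7 lower and 3 similar on the deposited scale. Interleukin-1 beta (Il1b) was at 3.59 and 3.44 RPKM in double mutant HSPC, 81.1 and 83.6 in neutrophils and 0.2997 and 0.272 in WT HSPC (difference -4.86 ± 0.10 SE, adjusted p = 1.11e-09). Il18, a related cytokine, had the reverse order at 12.96 and 12.5 against 1.13 and 1.35 RPKM (difference 2.43 ± 0.11), and the inflammasome adaptor Pycard was similar (95% interval -0.20 to 0.30). Of 15 inflammatory mediator genes, 11 were lower, 1 higher and 1 similar (median -2.18). Alox5, the first enzyme of leukotriene synthesis, was at 1.26 and 1.17 against 37.7 and 37.3 RPKM (difference -4.97 ± 0.12), while the NF-kappaB inhibitor Nfkbia was similar at 53.3 and 50.5 against 50.8 and 52.4 RPKM, both well above the 9.73 and 9.56 of WT HSPC.

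In the opposite direction, antigen presentation through MHC class II separated double mutant HSPC from neutrophils. All 10 MHC class II genes were higher in double mutant HSPC, against 18.4% of all genes tested (median 5.79), and their summed level was 7281 and 7233 RPKM there, 34.7 and 37.1 in neutrophils and 51.6 and 50.6 in WT HSPC. H2-Ab1, a beta chain of the classical molecules, was at 1680.2 and 1649.8 RPKM in double mutant HSPC, 3.78 and 4.04 in neutrophils and 6.44 and 5.998 in WT HSPC. Its difference was 8.07 ± 0.11 (SE, adjusted p = 1.66e-10), the largest of all genes called higher, and the gene spans chr17:34257689-34269419 (GRCm38, plus strand). The coactivator Ciita was at 75.7 and 75.4 RPKM against 0.309 and 0.307 in neutrophils and 0.193 and 0.149 in WT HSPC (difference 6.06 ± 0.07). Cd74, the invariant chain that guards the peptide groove, was at 1647 and 1645 against 14.96 and 15.9 RPKM (difference 6.20 ± 0.09), and H2-DMa, a subunit of the peptide-exchange factor, at 162 and 158 against 2.46 and 2.37 (difference 5.29 ± 0.10). In all 4 of these genes the double mutant libraries stood far above both other populations. The largest differences outside the class II genes included Ifi205, an interferon-inducible gene, at 65.1 and 62.9 against 0.166 and 0.119 RPKM (difference 6.15 ± 0.09), the PHD finger gene Phf11a (difference 6.06 ± 0.09) and brain-type creatine kinase Ckb at 110.3 and 106 against 0.634 and 0.839 RPKM (difference 5.97 ± 0.09).

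The stretch before H2-Eb1, a second beta chain at 2179 and 2189 RPKM in double mutant HSPC, is shown because it holds CCAAT, the core letters of the Y box known from MHC class II promoters, here in capitals on either strand (ATTGG on the opposite strand). Which of the 2 matches is the Y box was not tested. It is chr17:34305617-34305866 on the plus strand (GRCm38.p6, RefSeq), just upstream of the gene, in the class II region of chromosome 17.
H2-Eb1: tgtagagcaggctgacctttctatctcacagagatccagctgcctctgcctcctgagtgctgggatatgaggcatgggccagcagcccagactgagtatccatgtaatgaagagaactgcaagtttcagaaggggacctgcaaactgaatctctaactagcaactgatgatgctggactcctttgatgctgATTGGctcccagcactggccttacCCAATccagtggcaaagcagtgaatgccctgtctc
RefSeq gave 8 windows for 7 of the 10 MHC class II genes, and 7 (87.5%) held CCAAT against 37.4% of all windows. Only 1 (12.5%) held 2 or more, against 11.7% of all windows. This group was chosen for the count after its expression had been seen.

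Dendritic cell genes moved with the class II genes. Of 17 tested, 15 were higher in double mutant HSPC, against 18.4% of all genes tested, and 1, Ly6d, was lower (median 3.26). The summed level of the 20 listed genes was 1090 and 1069 RPKM in double mutant HSPC, 83.1 and 84.2 in neutrophils and 68.4 and 67.2 in WT HSPC. Xcr1, the chemokine receptor that marks the cross-presenting (type 1) subset, was at 109 and 106 RPKM in double mutant HSPC, 0.176 and 0.251 in neutrophils and 0.272 and 0.206 in WT HSPC (difference 6.75 ± 0.07 SE, adjusted p = 6.06e-11). Clec9a, a receptor for dead cells on the same subset, was at 51.3 and 50.2 against 0.513 and 0.495 RPKM (difference 5.18 ± 0.19). The integrin chain Itgae (CD103) was at 74.4 and 74.2 against 0.151 and 0.244 RPKM (difference 6.25 ± 0.08). The transcription factors of this subset had the same order, with Irf8 at 88.996 and 89.04 RPKM in double mutant HSPC, 1.48 and 1.52 in neutrophils and 12.7 and 12.8 in WT HSPC (difference 4.99 ± 0.12) and Batf3 at 6.57 and 6.37 against 0.02 and 0.0126 (difference 3.26 ± 0.04). Xcr1, Clec9a, Itgae and Batf3 reached the minimum only through the double mutant libraries, so their direction follows from the filter. Siglech, Tcf4 and Ccr9, which mark plasmacytoid dendritic cells, were all under the minimum of 1 RPKM in both populations.

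Genes of dendritic cell activation, a list made after the values were seen, included 12 of 15 that were higher, 2 similar and none lower (median 3.38). Over all genes tested 18.4% were higher and 15.5% similar. Ccr7, the receptor that guides activated dendritic cells to lymph nodes, was at 69.4 and 67.9 RPKM in double mutant HSPC and 0.385 and 0.365 in neutrophils (difference 5.81 ± 0.10). The activation marker Cd83 was at 79.6 and 74.7 against 0.378 and 0.337 RPKM (difference 6.00 ± 0.10), and the costimulatory ligand Cd86 at 31.03 and 30.3 against 1.72 and 1.54 (difference 3.38 ± 0.07). The other B7 ligand, Cd80, was instead similar in both: 6.805 and 6.501 RPKM in double mutant HSPC, 7.39 and 6.91 in neutrophils and 0.1598 and 0.122 in WT HSPC. Ccr7 and Cd83 reached the minimum only through the double mutant libraries, so their direction follows from the filter.

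Monocyte and macrophage genes did not follow one direction. Of 29 tested, 15 were higher in double mutant HSPC, 6 were lower and none was similar (median 1.39). Those higher included Ly86 (MD-1) at 92.1 and 90.7 against 2.72 and 2.32 RPKM (difference 4.43 ± 0.17), the pore-forming Mpeg1 at 580.4 and 578 against 82.5 and 82.8 (difference 2.31 ± 0.11) and the complement subunit C1qb at 16.3 and 15.7 against 0.542 and 0.472 (difference 3.54 ± 0.12). Lysozyme (Lyz2) was the furthest in the other direction, at 183 and 177 RPKM in double mutant HSPC, 10107 and 10199 in neutrophils and 79.5 and 80.1 in WT HSPC (difference -6.31 ± 0.31 SE, adjusted p = 1.41e-07). The monocyte surface marker Ly6c2 was lower in double mutant HSPC (23.4 and 23.2 RPKM) than in neutrophils (154 and 149) and WT HSPC (37.7 and 39.7).

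**Figure D4:**
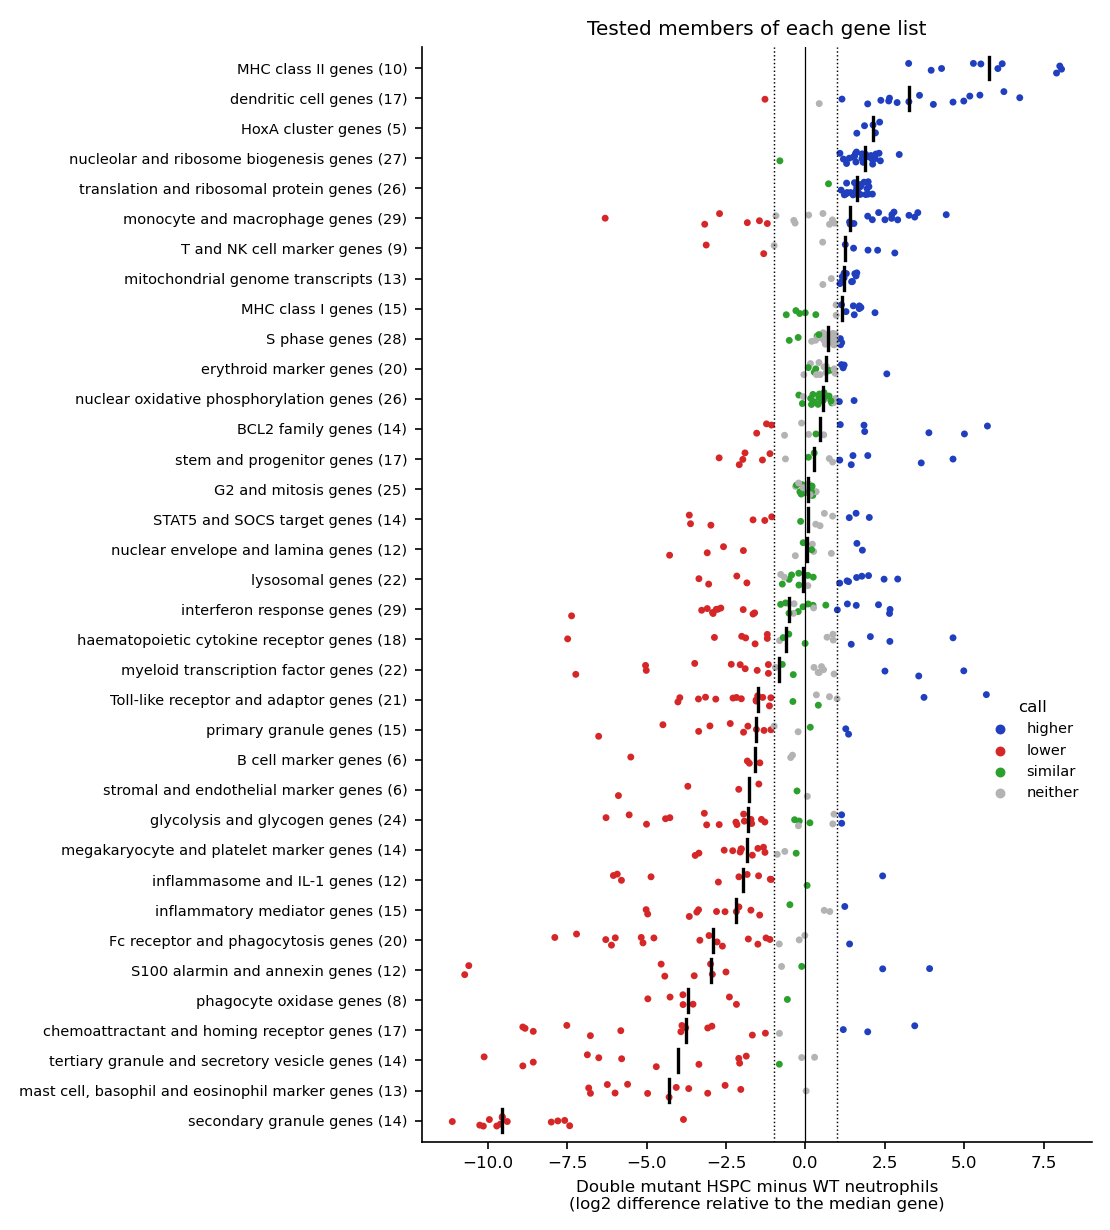
Difference of every tested member of the 36 gene lists (points, double mutant HSPC minus WT neutrophils, log2, relative to the median gene) with the list median as a bar and the number of tested members in brackets. Colours give the call and dotted lines mark 2-fold: MHC class II genes lie highest and secondary granule genes lowest, with G2 and mitosis genes all within 0.34 of the median gene.

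Some genes were within 2-fold of each other in the populations and well above WT HSPC in both. Among the 1489 similar genes, the 12 for which the smaller of the 2 differences from WT HSPC was largest were Plbd1, Amica1, Klf2, Ifi27l2a, Lsp1, Marcks, Icosl, Myadm, Evi2a, Cd80, Krt80 and Ier5. These were chosen for lying above WT HSPC in both, so their levels are a description, and both differences use the same WT HSPC libraries. Plbd1, a phospholipase B-like lysosomal protein, was at 295 and 288 RPKM in double mutant HSPC, 190.03 and 194 in neutrophils and 0.999 and 0.859 in WT HSPC (95% interval of the difference -0.35 to 0.56). Amica1, an adhesion molecule of leukocyte transmigration, was at 62.7 and 61.998, then 56.6 and 59.9, then 1.12 and 1.07 RPKM in the same order (interval -0.69 to -0.10). Lsp1, an actin-binding leukocyte protein, was at 55.2 and 55.1, then 56.3 and 53.97, then 2.03 and 2.08 RPKM (interval -0.79 to -0.20). Klf2, a transcription factor of leukocyte quiescence, was at 35.8 and 35.5, then 43.003 and 40.99, then 0.637 and 0.656 RPKM (interval -0.95 to -0.51), a call lost without replicate 1 or 2 of double mutant HSPC or replicate 2 of neutrophils. For Icosl, the ligand of the costimulator ICOS, and Marcks, an actin-regulating kinase substrate, the intervals were -0.32 to 0.47 and -0.19 to 0.41, with levels in double mutant HSPC of 29.5 and 29.8 and of 52.5 and 50.4 RPKM.

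**Figure D5:**
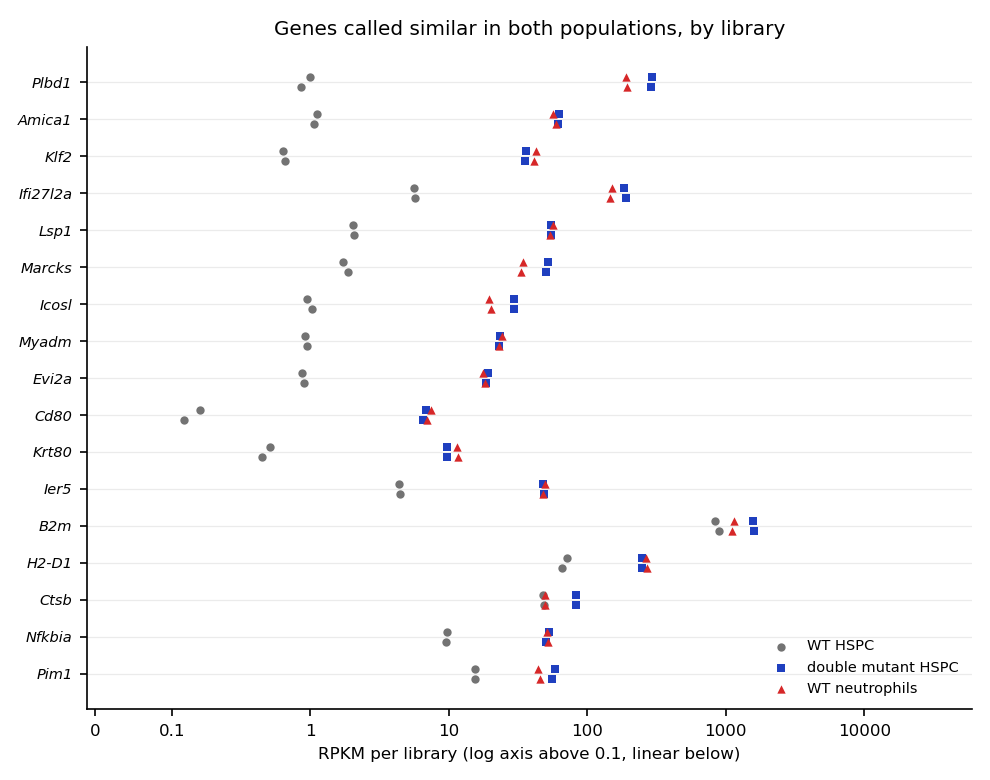
RPKM in each library (log axis above 0.1, linear below) of the 12 similar genes furthest above WT HSPC and of 5 further similar genes of the lists. Double mutant and neutrophil libraries lie side by side, and WT HSPC libraries lie to the left of both in all 17 genes, by little from the neutrophils in Ctsb.

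Some MHC class I and lysosomal genes were similar in the populations. Over all genes tested 15.5% were similar, and of those with both means at least 5 RPKM 53.3% were. The counts below therefore do not show more sharing than among other genes of such levels. Of 15 MHC class I genes, 5 were similar, 8 were higher in double mutant HSPC and none was lower (median 1.14). The light chain B2m was at 1582 and 1591 RPKM in double mutant HSPC, 1149 and 1108 in neutrophils and 839.8 and 896 in WT HSPC (95% interval -0.22 to 0.21), and the heavy chain H2-D1 at 249.01 and 248.69, then 266 and 269.9, then 71.7 and 65.7 (interval -0.85 to -0.36). Those higher in double mutant HSPC included the immunoproteasome subunit Psmb8 at 76.8 and 74.7 against 16.3 and 16.1 RPKM (difference 1.69 ± 0.09). Of 22 lysosomal genes, 7 were similar, 8 higher and 4 lower (median -0.06). The protease cathepsin S (Ctss), which trims the invariant chain, was at 145 and 143 against 12.997 and 13.3 RPKM (difference 2.91 ± 0.14) and cathepsin D (Ctsd) at 33.6 and 32.5 against 195 and 197 (difference -3.05 ± 0.07), so these proteases ran in opposite directions.

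Myeloid transcription factors differed in both directions. Of 22 myeloid factors, 10 were lower, 3 higher and 2 similar in double mutant HSPC (median -0.84), with 8 lower and 6 higher on the deposited scale. Over all genes tested 23.5% were lower, 18.4% higher and 15.5% similar, and the higher and similar counts were under those shares. Cebpe, the C/EBP factor required for secondary granules, was at 0.455 and 0.351 RPKM in double mutant HSPC, 96.1 and 95.1 in neutrophils and 3.19 and 3.29 in WT HSPC (difference -7.23 ± 0.29 SE, adjusted p = 4.17e-08). The early granulocyte factor Gfi1 was at 0.168 and 0.199 against 2.02 and 1.87 RPKM (difference -2.34 ± 0.20). PU.1 (Spi1), shared by all myeloid cells, was at 8.17 and 9.12 RPKM in WT HSPC, 30.3 and 29.9 in double mutant HSPC and 90.9 and 88.3 in neutrophils (difference -2.05 ± 0.20). Klf4, a monocyte factor, was higher in double mutant HSPC at 6.666 and 6.671 against 0.384 and 0.407 RPKM (difference 2.50 ± 0.15). Fosb was the third factor called higher (difference 3.57 ± 0.20), next to Irf8 and Klf4.

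Cytokine receptors also differed in both directions. Of 18 haematopoietic cytokine receptor genes, 7 were lower, 4 higher and 3 similar (median -0.61), against 5 lower and 7 higher on the deposited scale. Over all genes tested 23.5% were lower, 18.4% higher and 15.5% similar, and the higher and similar counts were near those shares. Csf3r, the receptor of the granulocyte growth factor G-CSF, was at 159.8 and 159.5 RPKM in neutrophils, 0.7503 and 0.766 in double mutant HSPC and 3.049 and 3.050 in WT HSPC (difference -7.49 ± 0.27 SE, adjusted p = 2.34e-08). Flt3 was at 44.2 and 44.3 RPKM in double mutant HSPC, 0.706 and 0.826 in neutrophils and 5.35 and 5.22 in WT HSPC (difference 4.65 ± 0.12 SE, adjusted p = 3.41e-09), with no distinction between its normal and mutant alleles in these values. The GM-CSF receptor subunits lay between: Csf2ra was at 5.15 and 5.705 RPKM in WT HSPC, 34.1 and 33.99 in double mutant HSPC and 75.2 and 70.95 in neutrophils (difference -1.59 ± 0.18, or -0.93 and no longer called after quantile normalization).

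The 5 HoxA genes that reached the minimum, of 10 in the tables, were all higher than in neutrophils (median 2.13). They reached it through the double mutant libraries, so the direction follows from the filter, and with a minimum of 5 RPKM none was tested. Hoxa9, a self-renewal factor of progenitors and leukaemia, was at 3.36 and 3.22 RPKM in double mutant HSPC, 0.0786 and 0.087 in neutrophils and 0.965 and 1.02 in WT HSPC (difference 2.20 ± 0.11). Of 17 stem and progenitor genes, 6 were higher, 6 lower and 2 similar (median 0.28). Myb, a factor of proliferating progenitors, was among the similar at 10.4 and 10.5 RPKM in double mutant HSPC and 6.73 and 6.77 in neutrophils, both below the 59.8 and 58.4 of WT HSPC (interval -0.11 to 0.30). Gata2, a stem cell factor, was lower in double mutant HSPC at 0.949 and 1.02 against 2.29 and 2.09 RPKM (difference -1.35 ± 0.13), but under 2-fold on the deposited scale (-0.86).

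None of 25 G2 and mitosis genes was higher or lower, 16 were similar against 15.5% of all genes tested, and the 9 others had a mean under 5 RPKM in at least 1 group. The list median was 0.09 and its range -0.31 to 0.34. Ki-67 (Mki67), the standard proliferation marker, was at 72.1 and 69.7 RPKM in double mutant HSPC, 41.5 and 43.7 in neutrophils and 128 and 116 in WT HSPC (interval -0.05 to 0.51), and its call of similar was lost on the deposited scale (0.73). Cyclin B2 (Ccnb2), which drives entry into mitosis, was at 36.6 and 36.1, then 24.6 and 26.4, then 78.7 and 83.4 RPKM in the same order (interval -0.13 to 0.15). Both populations were thus below WT HSPC, and close to each other once the shift of the median gene was taken off. Of 28 S phase genes 4 were higher in double mutant HSPC, a smaller share than the 18.4% of all genes tested, 7 were similar and none was lower (median 0.70), whereas 19 were higher on the deposited scale. Mcm2, a subunit of the replicative helicase, was at 22.3 and 22.1 against 6.93 and 6.65 RPKM (difference 1.14 ± 0.05).

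The stretch before Ccnb2 is shown because G2 and mitosis promoters are known for repeated CCAAT boxes, bound by NF-Y, and for the cell cycle homology region with the core TTTGAA. It is chr9:70421555-70421804 on the minus strand (GRCm38.p6, RefSeq), upstream of the gene, with its 3 CCAAT matches in capitals, and it also holds 1 TTTGAA in lower case.
Ccnb2: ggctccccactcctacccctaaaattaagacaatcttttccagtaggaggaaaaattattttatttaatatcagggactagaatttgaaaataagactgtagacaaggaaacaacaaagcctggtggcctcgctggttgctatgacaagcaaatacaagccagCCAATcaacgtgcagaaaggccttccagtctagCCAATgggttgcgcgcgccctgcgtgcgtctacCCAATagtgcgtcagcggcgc
RefSeq gave 22 windows for 21 of the 25 G2 and mitosis genes: 20 (90.9%) held CCAAT and 13 (59.1%) held at least 2, against 37.4% and 11.7% of all windows. TTTGAA was in 17 (77.3%) against 17.9% of all windows. Each pattern was searched on both strands and separately, so matches of different patterns may share letters.

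Protein synthesis genes were nearly all higher in double mutant HSPC. In the nucleolar and ribosome biogenesis list 26 of 27 genes were higher and 1 similar (median 1.89), and in the translation and ribosomal protein list 25 of 26 were higher and 1 similar (median 1.63). Npm1 itself was at 146 and 142 RPKM in double mutant HSPC, 18.97 and 19.9 in neutrophils and 289 and 284 in WT HSPC (difference 2.36 ± 0.06 SE, adjusted p = 3.37e-09). Fibrillarin (Fbl), which methylates ribosomal RNA, was at 56.5 and 56.3 against 4.86 and 4.55 RPKM (difference 2.95 ± 0.11), and the ribosomal protein gene Rplp1 at 2122 and 2085 against 379 and 397 (difference 1.94 ± 0.06). In deposited RPKM, WT HSPC were above double mutant HSPC in these 3 genes, as for Rplp1 at 2586 and 2646 RPKM. The median gene itself differed by -0.28 (double mutant minus WT HSPC, log2), so a small gap such as that of Rplp1 depends on the scale. For Npm1 the difference from WT HSPC relative to the median gene was -0.71.

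Of 24 glycolysis and glycogen genes, 16 were lower in double mutant HSPC, 2 higher and 3 similar (median -1.82), and 14 were lower on the deposited scale. Glycogen phosphorylase (Pygl) was at 3.93 and 4.08 RPKM in double mutant HSPC, 247 and 249 in neutrophils and 7.38 and 7.59 in WT HSPC (difference -6.28 ± 0.12 SE, adjusted p = 8.27e-10). The glucose transporter Slc2a3 was at 2.25 and 2.27 against 90.3 and 91.97 RPKM (difference -5.55 ± 0.06). Of 26 nuclear genes of oxidative phosphorylation, 20 were similar, 2 higher and none lower (median 0.54), but on the deposited scale 14 were higher and 7 similar. The transcripts of the mitochondrial genome were higher for 11 of 13 (median 1.22), with mt-Co1, a cytochrome oxidase subunit, at 4227 and 4174 against 1336 and 1326 RPKM (difference 1.16 ± 0.09).

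Interferon response genes had no common direction: 6 of 29 were higher, 11 lower and 8 similar (median -0.52). Ifitm6 was the furthest apart, at 14.98 and 16.8 RPKM in double mutant HSPC and 1911 and 1914 in neutrophils (difference -7.36 ± 0.45 SE, adjusted p = 5.91e-07), whereas Ifi44 was at 4.53 and 4.56 against 0.0808 and 0.0472 (difference 2.66 ± 0.15). Isg15, a ubiquitin-like modifier, was similar at 18.02 and 16.1 against 13.3 and 11.9 RPKM, both above WT HSPC (3.79 and 3.07). In the BCL2 family, which governs cell death, 6 of 14 genes were higher, 3 lower and 1 similar (median 0.45). Bcl2a1d, a survival gene, was at 86.6 and 84.7 RPKM in double mutant HSPC and 0.598 and 0.702 in neutrophils (difference 5.73 ± 0.11), though its near-identical copies Bcl2a1a and Bcl2a1b can share its reads. Mcl1, the survival factor on which neutrophils depend, was at 106 and 104 against 169.9 and 178 RPKM (difference -1.23 ± 0.06), under 2-fold on the deposited scale (-0.73).

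The summed levels of markers of other lineages are given here, and their part in the results above was not tested. The 17 mast cell, basophil and eosinophil genes summed to 818 and 804 RPKM in neutrophils, 32.9 and 36.4 in double mutant HSPC and 613 and 628 in WT HSPC, and 12 of 13 tested were lower in double mutant HSPC. The basophil protease Mcpt8 was at 138 and 139 RPKM in neutrophils, 1.67 and 2.599 in double mutant HSPC and 142 and 148 in WT HSPC. Platelet genes summed to 263 and 268 RPKM in neutrophils and 77.1 and 77.7 in double mutant HSPC, with 11 of 14 lower, and erythroid genes to 720 and 705 against 1804 and 1782, with 4 of 20 higher, near the 18.4% of all genes tested, and none lower (12 higher on the deposited scale). B cell genes summed to 313 and 316 RPKM in neutrophils and 19.4 and 26.0 in double mutant HSPC, mostly through Jchain at 293 and 295 against 8.19 and 9.18 RPKM. Of 20 T and NK cell genes, 9 were tested, of which 5 were higher in double mutant HSPC, 2 were lower and none was similar. Cd8a, which some dendritic cells also express, was at 2.499 and 2.41 RPKM in double mutant HSPC against 0.0457 and 0.0231 in neutrophils (difference 1.97 ± 0.04). The T cell receptor subunit Cd3d ran the opposite way at 0.768 and 0.548 against 6.75 and 6.51 RPKM (difference -3.13 ± 0.16), as did the granzyme Gzma at 2.397 and 2.22 against 4.27 and 4.64 (difference -1.31 ± 0.17), the latter under 2-fold on the deposited scale. Cd3e, Cd4 and Ncr1 were under the minimum. Of 17 stromal and endothelial genes, which summed to 109.7 and 107 RPKM in double mutant HSPC and 125 and 121 in neutrophils, 6 were tested and 4 of them were lower, 1 similar and none higher.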

How the data were processed

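RNA-seq was made from total RNA after ribosomal RNA depletion with a directional library kit, per the labels' protocols. Each library has its own table of RPKM values as deposited by the authors, and the submitters' processing notes name STAR 2.4.0, HTSeq, DiffBind and the mm10 build. The annotation, the strand setting and the reads counted in the RPKM total are each not given in the sources used here, so overlapping and antisense genes may share reads. No column was left unmapped.

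Values were tested as log2(RPKM + 0.5) with limma 3.58.1 (variance trend, Benjamini-Hochberg) in R 4.3.3, fitting all 10 libraries in 5 groups without a replicate block. Genes needed at least 1 RPKM in 2 of the 4 libraries compared. Differences were taken relative to the median gene, and called higher or lower at an adjusted p under 0.05 and at least 2-fold. Python 3.11.15, NumPy 2.4.6, pandas 2.3.3 and matplotlib 3.10.9 served for the rest. The fit was tested on simulated data for 9583 genes with 200 changed: it called 100.0% of 8-fold and 99.0% of 2.8-fold changes and 0 of 9383 unchanged genes. With so few genes changed the median gene hardly moved, whereas 88.3% of genes passed the adjusted p (limma) in the data. The simulation therefore cannot show whether the median gene is a neutral reference here.

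Whole reads and library totals were recovered from the low RPKM values for 16655 of 16655 genes above 0 in at least 2 libraries (tolerance 0.02 reads), and 99.8% of the implied lengths were whole. limma voom on these reads was added as an alternative after the data were seen. It called 2332 genes higher and 2509 lower.

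Genes were named as the 12 with the largest differences in each direction with at least 10 RPKM in the higher group, the 12 similar genes of highest level and the 12 furthest above WT HSPC, members of the gene lists, and Npm1 and Flt3. Not all genes of these sets are described, and list members were picked for their role with values known. The comparison, its members and all lists were chosen with earlier results of these data known. Symbols of 16158 of 16771 genes matched GENCODE M21 (GRCm38). Promoter windows came from RefSeq. The alternatives are other scalings, pseudocounts and filters, fits to 4 libraries, leaving out each library, and a replicate block.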

Additional observations from a re-analysis of the deposited data

How the results depend on the processing

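Of the named genes, the 46 called higher and 56 called lower kept their sign in each of the 15 alternatives in which they were tested. At a minimum of 5 RPKM these were 40 and 53 of them. They had been called for a difference of at least 2-fold, so a change of sign was unlikely from the start. Of all 126 named genes, 7 lost their call on the deposited scale. After quantile normalization, with 0.1 added to each value and with no filter, 5 did in each case, and no other alternative had more. Of 24 named genes called similar, whose differences lie near 0, 11 changed sign in at least 1 alternative, 8 of them on the deposited scale, where for instance Amica1 went from -0.40 to 0.10. The counts of genes higher and lower (1767 and 2255) depended most on scale and filter. The deposited scale gave 3179 higher and 1490 lower, no filter on low values gave 2932 higher, and a minimum of 5 RPKM gave 1499 lower among 5167 genes. That the shift of the median gene moved these counts follows from the construction of the first. The count of similar genes (1489) moved most with the libraries fitted. It was 1627 with the 4 compared libraries alone and 1608 without the HSPC of either mutation alone, against 1485 on the deposited scale and 1575 after quantile normalization. Leaving out each of the 4 libraries in turn gave 1764 to 1774 higher, 2246 to 2257 lower and 1397 to 1418 similar.

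Replicate numbers did not pair the samples: the deviations of same-numbered double mutant and neutrophil libraries correlated at 0.12 and those of all pairs of groups at -0.11 to 0.12. With the replicate number as a block, 1767 genes were higher, 2255 lower and 1475 similar. With 2 libraries per group, and genes near 0 RPKM in 1 of them, the sizes of the largest differences are set partly by the 0.5 added to each value.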

Other observations

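The lists in these 2 paragraphs were made after the values had been seen, and are given as values without weighing. Clustered histone genes, taken by symbol (Hist1h to Hist4h), were mostly called similar. Of 57 tested, 45 were similar, 2 lower and none higher in double mutant HSPC (median -0.10), against 41 similar and 9 higher on the deposited scale. Hist1h4d was at 918 and 938 RPKM in double mutant HSPC, 864 and 804 in neutrophils and 2143 and 2387 in WT HSPC (difference -0.34 ± 0.08). Hist1h4m went against the rest, at 5.33 and 6.74 RPKM in double mutant HSPC, 144 and 148 in neutrophils and 281 and 286 in WT HSPC (difference -4.99 ± 0.09 SE, adjusted p = 4.61e-10, limma). Within a histone family the protein-coding parts of such genes can be nearly identical, so reads can be shared among copies.

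Stefin A genes, inhibitors of cysteine cathepsins, and other late secreted neutrophil genes were lower in double mutant HSPC in 11 of 11 tested (median -7.66). Stfa2l1 was at 244 and 232 RPKM in neutrophils, 0.328 and 0.251 in double mutant HSPC and 0.132 and 0.126 in WT HSPC (difference -8.73 ± 0.31 SE, adjusted p = 2.32e-08, limma), and the stefin A copies can share reads too. Of 15 antioxidant genes, 4 were higher, 6 lower and 4 similar (median -0.44). Glutathione reductase (Gsr) was at 422 and 416 RPKM in neutrophils, 18.8 and 18.4 in double mutant HSPC and 40.2 and 41.9 in WT HSPC (difference -4.95 ± 0.11). The cytosolic superoxide dismutase Sod1 had the reverse order, at 216 and 229 RPKM in double mutant HSPC against 38.3 and 37.2 in neutrophils (difference 2.04 ± 0.07).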
